A study of Rattus norvegicus with 4 samples.

Results

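The regulators of actin assembly and turnover described here are 40 genes named for their known function, in a list drawn up with earlier results of these data known, among them the Ena/VASP proteins, formins, profilins, the Arp2/3 complex with 2 of its activators, the ADF/cofilins with their kinases and phosphatases, coronins, proteins of the filament ends, and the sphingosine-1-phosphate receptor S1pr1. Of these, 39 were found among the 15731 genes listed in the expression table, and the formin Diaph2 was not listed. In the control library 38 of the 39 were above an RPKM (reads scaled to gene length and library size) of 1.0, as were 11543 genes in all. Coro2b, a coronin, lay just below that value with 0.713 RPKM, and Diaph1, a formin, lay just above it with 1.51 RPKM.

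The study transfected ventricular cardiomyocytes (CMs) of wild-type Wistar rats, labelled as postnatal day 1 (day 0 in one protocol), with a mimic of 1 microRNA of the miR-106b-25 cluster, to follow how each changes the CM transcriptome. There were 4 RNA-seq libraries, 1 for each of the mimics hsa-miR-25-3p, hsa-miR-93-5p and hsa-miR-106b-5p and 1 for the nematode microRNA cel-miR-67, which served as the control and went through the same transfection. Mimics were added after 24 h in culture, at a dose that one protocol gives as 25 nM and another as 25 mM, and RNA was taken 72 h after transfection. The cells came from dissociated ventricles and were pre-plated to remove adhering non-muscle cells, with no sort described, and every library also carried RNA of other cell types. With 1 library per mimic there is no spread between replicates, so no test of a mimic against the control was possible and every difference is a difference between these libraries.

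Actin filaments grow at their barbed end and are taken apart from their pointed end. Formins and Ena/VASP proteins lengthen filaments at the barbed end, profilins deliver the monomers, and the Arp2/3 complex starts branches on the side of an existing filament. ADF/cofilins sever old filaments, LIM kinases switch cofilins off by phosphorylation, and slingshot phosphatases switch them back on. In CMs most actin is held in the thin filaments of the sarcomere, whose pointed ends are capped by tropomodulin and extended by leiomodin, and the same regulators shape the cell cortex and the contractile ring during cell division.

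The mature sequences of the 3 microRNAs are shown because the mimics fall into 2 seed groups, and the members are compared along that division. The sequences are those of rat in RefSeq (GRCr8), whereas the mimics carried human names, and the capitals mark the seed, bases 2 to 8. All 3 lie on the minus strand of chromosome 12, at chr12:22157103-22157123 for miR-106b-5p, chr12:22156894-22156916 for miR-93-5p and chr12:22156652-22156673 for miR-25-3p.
rno-miR-106b-5p: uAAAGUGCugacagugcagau
rno-miR-93-5p: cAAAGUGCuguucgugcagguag
rno-miR-25-3p: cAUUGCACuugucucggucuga
The seed of miR-106b and miR-93 is the same, and that of miR-25 differs.

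Reads on listed genes numbered 15175185 in the control library and between 16460108 and 18797234 in the mimic libraries. The 8 CM markers summed to 12936.8 RPKM after miR-106b, 10623.5 after miR-93, 6930.8 after miR-25 and 12847.6 in the control, and all 8 were lower with miR-25 by more than 1.3-fold. The 8 fibroblast markers summed to between 317.3 and 820.6 RPKM, the 5 smooth muscle markers to between 588.9 and 2062.7, the 7 listed endothelial markers to between 6.29 and 9.54, and the 6 leukocyte markers to between 10.7 and 15.2. No listed marker was at 0 in any library.

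Changes are given as the log2 ratio of RPKM, mimic over cel-miR-67, and a gene is counted as upregulated or downregulated where that ratio passed a 1.3-fold cutoff (0.38 on the log2 scale). Each ratio is followed by its 95% exact (Clopper-Pearson) interval, computed from read numbers recovered from the RPKM values. The intervals cover counting error only, not the spread between cultures.

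In the control library the regulators were well expressed, with a median of 23.9 RPKM over the 38 members against 8.13 RPKM over the 11543 genes. The most abundant were Dstn at 475.6 RPKM and Cfl1 at 335.2 RPKM, both filament-severing proteins, then the profilin Pfn1 at 208.0 RPKM, the leiomodin Lmod2 at 167.1 RPKM, the muscle cofilin Cfl2 at 155.0 RPKM and the Arp2/3 subunit Actr3 at 103.5 RPKM. These were the 6 members above 100 RPKM, while 20 lay between 10 and 100 and 12 between 1 and 10, among them every formin except Daam1 and all 5 cofilin kinases and phosphatases.

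**Figure D1:**
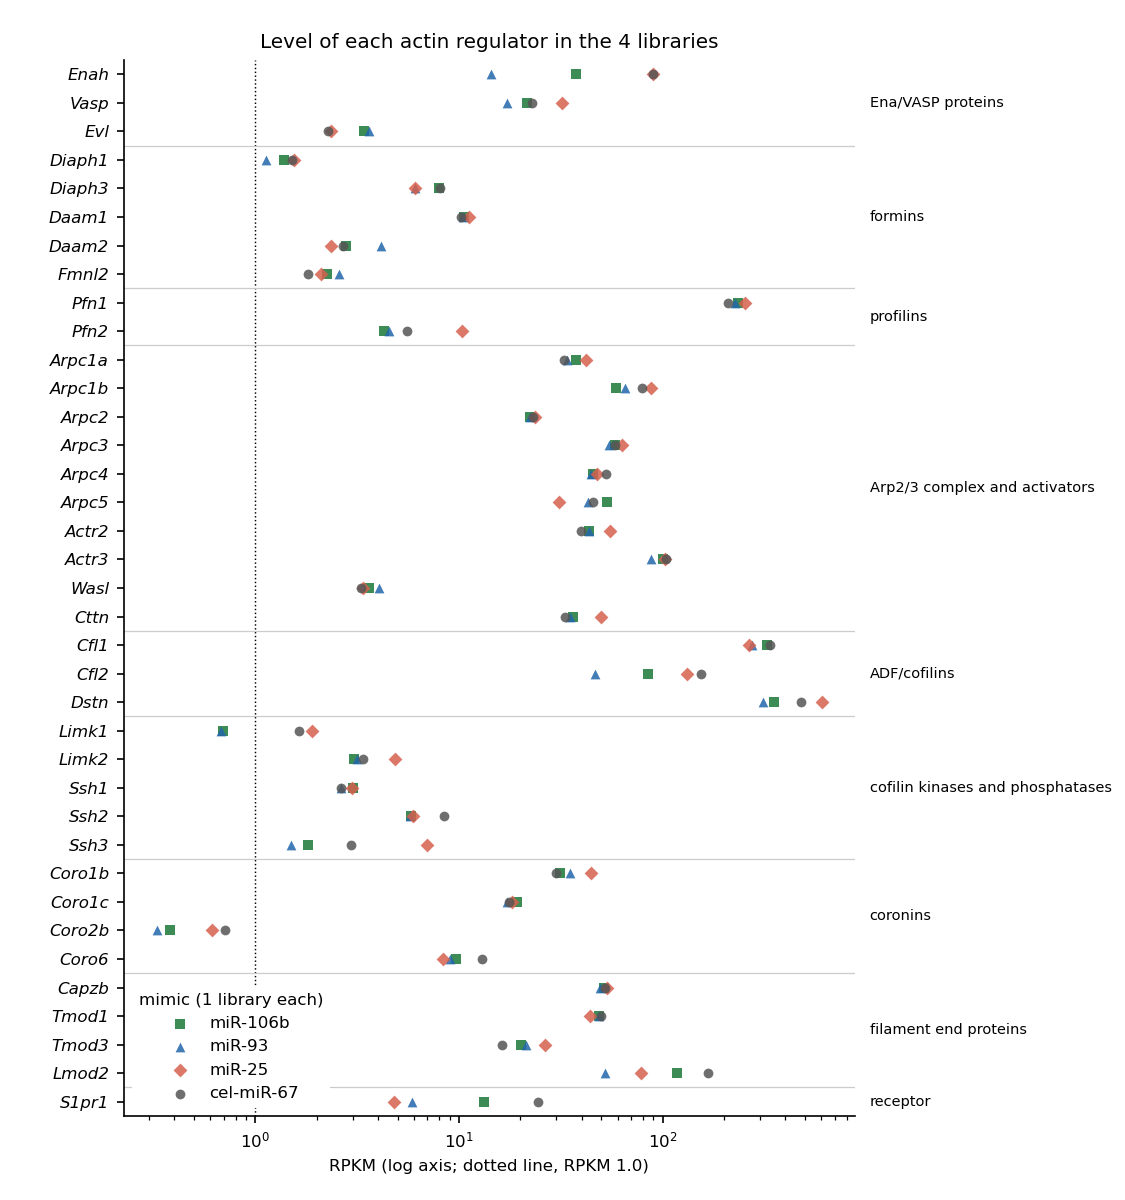
RPKM of 37 of the 39 listed actin regulators (rows, grouped by role) in the 4 libraries, on a log axis. Each point is 1 library, a square for miR-106b, a triangle for miR-93, a diamond for miR-25 and a circle for cel-miR-67, and the dotted line marks 1.0 RPKM. Enah, Cfl2, Lmod2 and S1pr1 have their lowest or next-to-lowest points with miR-93, whereas most Arp2/3 subunits have 4 points close together.

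With miR-106b, 11 of the 38 members were downregulated (28.9%) and 1 was upregulated (2.63%), and over all genes the shares were 14.1% and 11.6%. With miR-93, 12 were downregulated (31.6%) and 4 upregulated (10.5%), and over all genes 17.2% and 14.8%. With miR-25 the direction was divided, since 6 were downregulated (15.8%) and 8 upregulated (21.1%), against 24.7% and 18.8% of all genes. The downward shares with miR-106b and miR-93 were therefore above that of all genes, the downward share with miR-25 was below it, and the upward share with miR-25 was close to it. In either direction 12 members passed with miR-106b (31.6%, against 25.7% of all genes), 16 with miR-93 (42.1%, against 32.0%) and 14 with miR-25 (36.8%, against 43.5%). No chance level was attached to these shares, because the members were chosen with earlier results known. The median log2 change of the members was -0.04 after miR-106b, -0.15 after miR-93 and 0.09 after miR-25, and that of all genes was -0.01, -0.01 and -0.03. The counting interval left out 0 for every member counted as up- or downregulated.

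The 3 comparisons share the 1 control library, so an odd value in it would move all of them together. A further dependence lies in the scale. When each library was rescaled to its reads on listed genes, every log2 change rose by 0.08 after miR-106b, 0.15 after miR-93 and 0.15 after miR-25, and the counts became 7 down and 3 up with miR-106b, 8 down and 5 up with miR-93, and 4 down and 12 up with miR-25. On that scale 18.4%, 21.1% and 10.5% of members were down, against 10.5%, 11.1% and 18.0% of all genes, and 7.89%, 13.2% and 31.6% were up, against 16.3%, 24.6% and 28.5%. At a 1.5-fold cutoff on the deposited scale, 5 members were down after miR-106b, 7 after miR-93 and 3 after miR-25 (13.2%, 18.4% and 7.89%, against 6.97%, 9.78% and 15.8% of all genes). At that cutoff 0, 2 and 3 members were up (0%, 5.26% and 7.89%, against 5.09%, 6.77% and 10.3%).

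**Figure D2:**
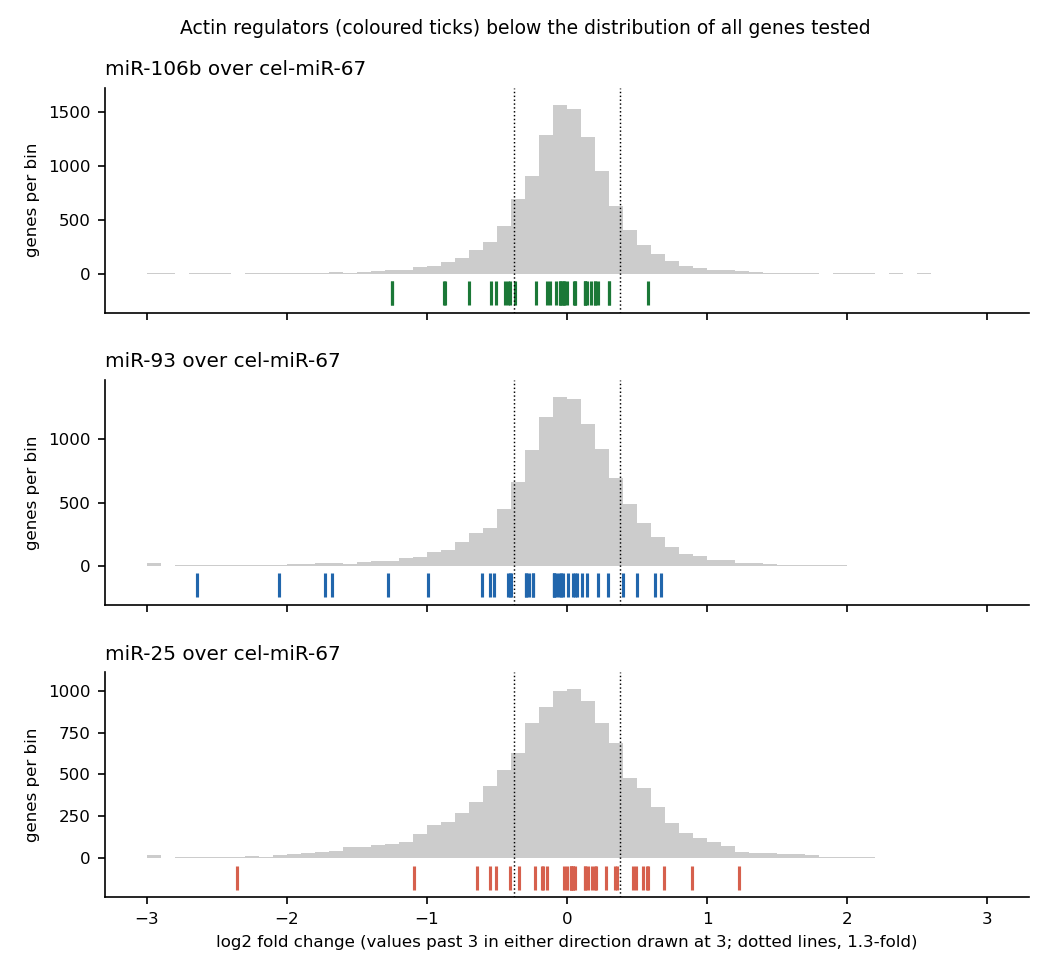
Histograms of the log2 change of RPKM, mimic over cel-miR-67, for all genes above 1.0 RPKM in the control library, 1 panel per mimic, with the changes of 36 of the 38 members marked and the 1.3-fold cutoffs drawn as lines. Genes at 0 in the mimic library are left out, and values past 3 in either direction are drawn at 3. The members' lowest values were -1.25 after miR-106b, -2.64 after miR-93 and -2.36 after miR-25, and their highest 0.58, 0.67 and 1.23.

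Of the 38 members, 24 passed the cutoff with at least 1 mimic and 14 with none, and the share of 63.2% was near that of all genes, 61.2%. Those 14 included Daam1, Pfn1, Arpc1a, Arpc2, Arpc3, Arpc4, Actr3, Wasl, Cfl1, Ssh1, Coro1c, Capzb and Tmod1, and all 14 had log2 changes between -0.34 and 0.36 and control levels between 2.63 and 335.2 RPKM. They include the most abundant profilin, the non-muscle cofilin, the capping protein subunit Capzb and the sarcomeric cap Tmod1. Only 5 members passed the cutoff with all 3 mimics: Ssh2, Coro6, Lmod2 and S1pr1 were down with each, and Ssh3 was down with miR-106b and miR-93 and up with miR-25. The share passing with all 3 was 13.2%, against 10.5% of all genes, and the share down with all 3 was 10.5%, against 3.88%. No member was up with all 3 on the deposited scale, against 3.21% of all genes. After rescaling, Pfn1 and Arpc1a passed upward with miR-25 and Wasl with miR-93. Rescaling also took Ssh2 with miR-25 and Coro6 with miR-106b and miR-93 inside the cutoff, so that only Lmod2 and S1pr1 stayed down with each mimic. On that scale Tmod3 was up with each mimic, at 0.39, 0.54 and 0.84. The shares of all genes passing with all 3 were not counted on that scale.

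**Figure D3:**
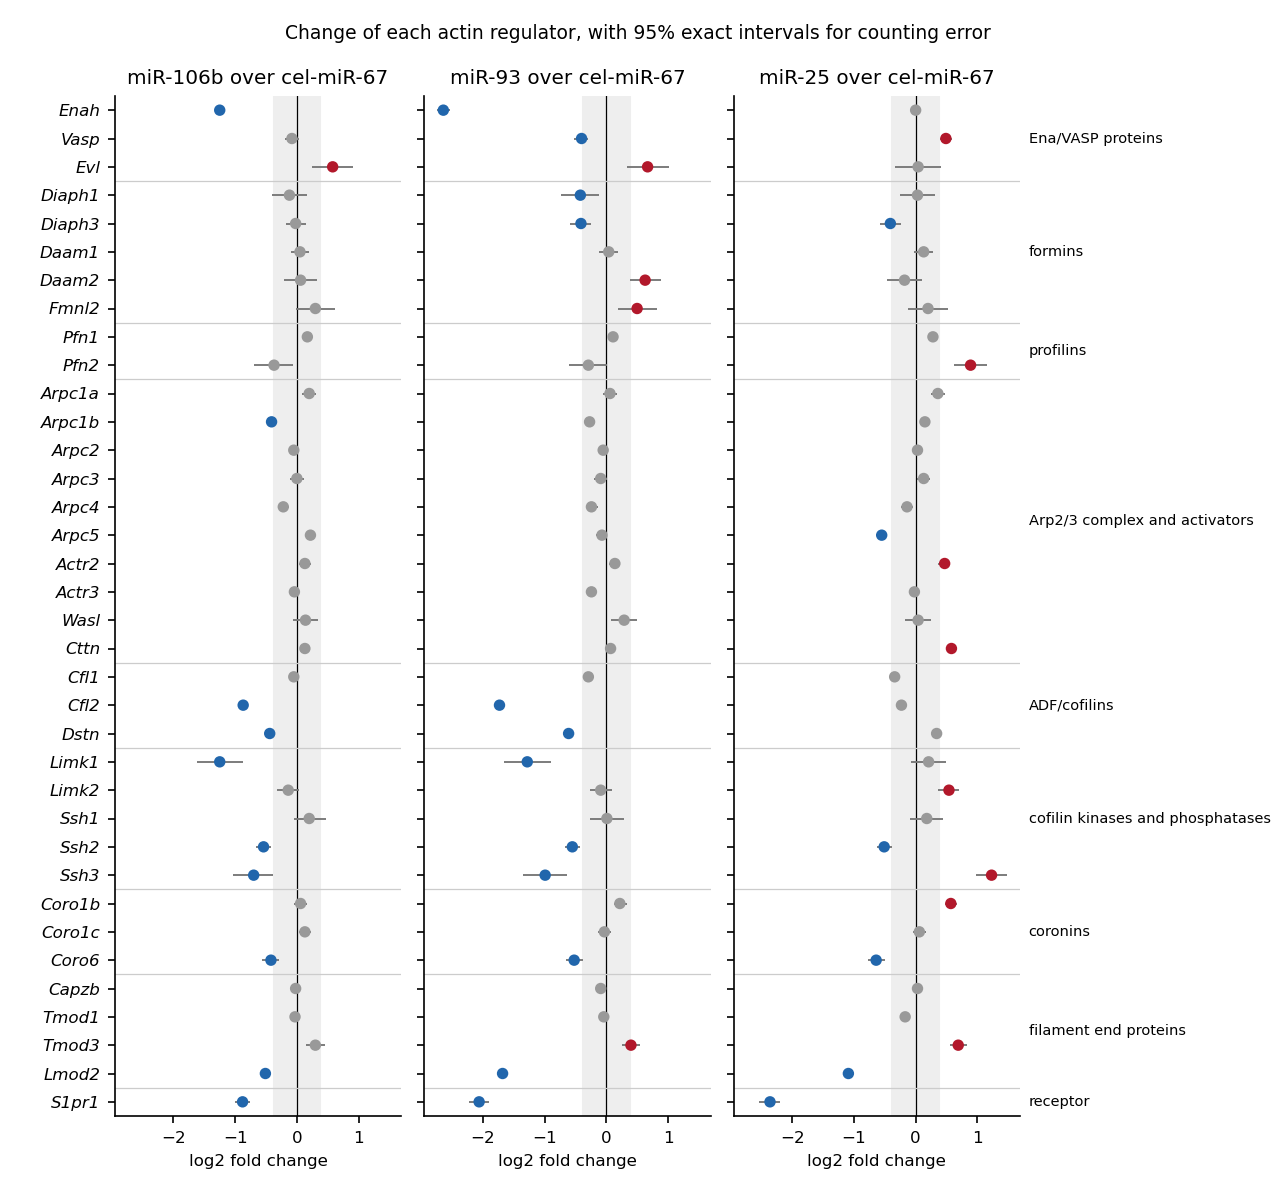
Log2 change of RPKM, mimic over cel-miR-67, for 36 of the 38 members (rows), with 1 panel per mimic. Points are ratios of single libraries and bars their 95% exact counting intervals, in blue where the gene was downregulated past 1.3-fold, in red where upregulated and in grey otherwise. Enah, Cfl2 and Limk1 lie far to the left with miR-106b and miR-93 and near or inside the cutoffs with miR-25, while Lmod2 and S1pr1 lie to the left in all panels.

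The Ena/VASP proteins, which hold filament barbed ends open for growth, contained the lowest value of any member. Enah (Mena), the family member that stands highest in these CMs, had 37.7 RPKM after miR-106b, 14.3 after miR-93, 89.1 after miR-25 and 89.3 in the control. It was low in the miR-106b library, lowest in the miR-93 library, and level with the control in the miR-25 library. The log2 change was -1.25 (-1.31 to -1.18) with miR-106b and -2.64 (-2.74 to -2.54) with miR-93, and these ranked 113th and 32nd from the bottom of the 11543 genes. With miR-25 it was 0.00 (-0.06 to 0.05).

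Vasp, the family member first known from platelets and focal adhesions, had 21.5 RPKM after miR-106b, 17.2 after miR-93, 31.9 after miR-25 and 22.7 in the control, so that the miR-93 and miR-25 libraries lay on opposite sides of the control. Its log2 change was -0.40 (-0.52 to -0.29) with miR-93 and 0.49 (0.39 to 0.59) with miR-25, and -0.08 (-0.19 to 0.03) with miR-106b was inside the cutoff. The miR-93 change of Vasp did not pass the cutoff after rescaling. Evl, the third family member, was low throughout, with 3.40 RPKM after miR-106b, 3.63 after miR-93, 2.34 after miR-25 and 2.28 in the control. It went the other way from Enah, up by 0.58 (0.25 to 0.91) with miR-106b and by 0.67 (0.34 to 1.01) with miR-93, while 0.04 (-0.33 to 0.41) with miR-25 was inside the cutoff.

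Because Enah dominated the family, the sum of the 3 genes followed it, at 62.6 RPKM after miR-106b, 35.2 after miR-93, 123.3 after miR-25 and 114.4 in the control. Enah made up 78.1% of that sum in the control library, 72.2% with miR-25, 60.2% with miR-106b and 40.8% with miR-93. In the miR-93 library Vasp, with 48.9% of the sum, stood above Enah.

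**Figure D4:**
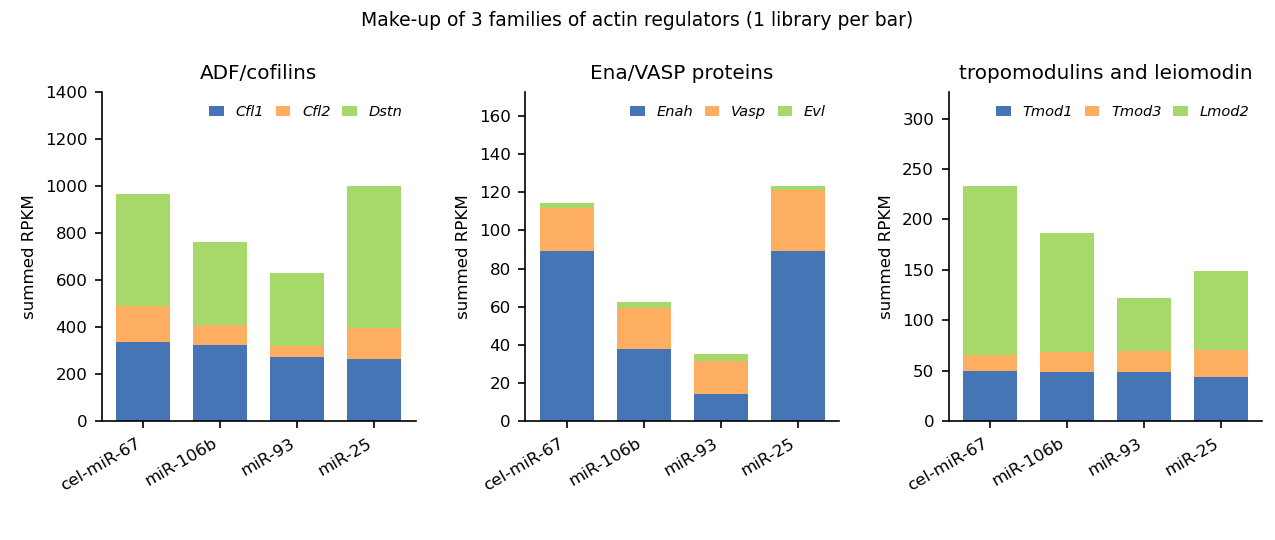
Stacked bars of RPKM for the genes of 3 families in the 4 libraries, from 0. The Ena/VASP sum was 62.6 after miR-106b, 35.2 after miR-93, 123.3 after miR-25 and 114.4 in the control, and the share of Enah (Ena/VASP), Cfl2 (ADF/cofilins) and Lmod2 (tropomodulins and leiomodin) was lowest in the miR-93 bar of each family.

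The ADF/cofilins, which sever and depolymerize filaments, had 2 of 3 genes downregulated in each library of the shared seed, and none past the cutoff with miR-25. Cfl2, the cofilin of striated muscle, had 84.6 RPKM after miR-106b, 46.7 after miR-93, 131.9 after miR-25 and 155.0 in the control. All 3 mimic libraries lay below the control, in the order miR-93, miR-106b and miR-25. The log2 change was -0.87 (-0.92 to -0.83) with miR-106b and -1.73 (-1.78 to -1.68) with miR-93, and -0.23 (-0.27 to -0.19) with miR-25 did not reach the cutoff. Dstn (destrin, or ADF) had 351.7 RPKM after miR-106b, 310.9 after miR-93, 603.6 after miR-25 and 475.6 in the control. It was below the control with the 2 mimics that share a seed and above it with miR-25. Its log2 change was -0.44 (-0.47 to -0.41) with miR-106b and -0.61 (-0.65 to -0.58) with miR-93, and 0.34 (0.32 to 0.37) with miR-25. Rescaling took the miR-106b change of Dstn inside the cutoff and the miR-25 change past it.

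Cfl1, the cofilin of non-muscle cells, stayed within the cutoff throughout, at 324.1 RPKM after miR-106b, 273.6 after miR-93, 265.3 after miR-25 and 335.2 in the control. The sum of the 3 genes was 760.4 RPKM after miR-106b, 631.2 after miR-93, 1000.9 after miR-25 and 965.8 in the control. Cfl2 made up 16.0% of that sum in the control library, 13.2% with miR-25, 11.1% with miR-106b and 7.40% with miR-93.

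The kinases and phosphatases that set cofilin activity were low in RPKM. Of the 5, 4 passed the cutoff with at least 1 mimic, as did 61.2% of all genes. Limk1, a kinase that inactivates cofilin, had 0.690 RPKM after miR-106b, 0.676 after miR-93, 1.89 after miR-25 and 1.64 in the control, from 99, 89, 248 and 179 reads. It was at less than 1.0 RPKM in both libraries of the shared seed and slightly above the control with miR-25. The log2 change was -1.25 (-1.62 to -0.88) after miR-106b, -1.28 (-1.66 to -0.90) after miR-93 and 0.21 (-0.08 to 0.49) after miR-25. Limk2, the second LIM kinase, had 3.04 RPKM after miR-106b, 3.16 after miR-93, 4.87 after miR-25 and 3.36 in the control, and only the miR-25 change of 0.54 (0.37 to 0.70) passed.

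The slingshot phosphatases, which reactivate cofilin, each had a pattern of their own. Ssh3 had 1.82 RPKM after miR-106b, 1.49 after miR-93, 6.94 after miR-25 and 2.96 in the control. It was lower with the shared seed, by -0.70 (-1.03 to -0.38) with miR-106b and -0.99 (-1.35 to -0.64) with miR-93, and higher with miR-25 by 1.23 (0.98 to 1.48), the highest value of any member with any mimic. Ssh2 had 5.79 RPKM after miR-106b, 5.74 after miR-93, 5.91 after miR-25 and 8.41 in the control, so that the mimic libraries were alike and below the control. The log2 changes of Ssh2 were -0.54 (-0.66 to -0.42), -0.55 (-0.67 to -0.43) and -0.51 (-0.63 to -0.39), and the last, that with miR-25, did not pass the cutoff after rescaling. Ssh1 had between 2.63 and 3.03 RPKM and passed with no mimic.

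The formins, which build unbranched filaments, changed little with miR-106b and miR-25 and in both directions with miR-93. Daam2, a formin of the Wnt planar polarity pathway, had 2.80 RPKM after miR-106b, 4.15 after miR-93, 2.36 after miR-25 and 2.68 in the control, and was high in the miR-93 library alone. The change there was 0.63 (0.38 to 0.88), against 0.06 (-0.21 to 0.33) with miR-106b and -0.18 (-0.47 to 0.10) with miR-25. Fmnl2, which acts at the leading edge of migrating cells, had 2.24 RPKM after miR-106b, 2.58 after miR-93, 2.09 after miR-25 and 1.82 in the control. Its change of 0.50 (0.19 to 0.82) with miR-93 passed, and 0.30 (-0.02 to 0.62) with miR-106b passed only after rescaling.

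Diaph3, a formin of the contractile ring, had 7.98 RPKM after miR-106b, 6.08 after miR-93, 6.08 after miR-25 and 8.08 in the control. The miR-93 and miR-25 libraries were equal and lower than the other 2, with a log2 change of -0.41 (-0.58 to -0.24) in each against -0.02 (-0.17 to 0.14) with miR-106b. Diaph1, the first described of the mammalian diaphanous formins, had 1.39 RPKM after miR-106b, 1.13 after miR-93, 1.54 after miR-25 and 1.51 in the control. Its change of -0.42 (-0.73 to -0.11) with miR-93 passed, against -0.12 (-0.40 to 0.17) with miR-106b and 0.03 (-0.25 to 0.32) with miR-25. Rescaling took all the downward formin changes inside the cutoff. Daam1, the most abundant formin, had between 10.2 and 11.2 RPKM.

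The Arp2/3 complex, which nucleates branched filaments, changed little as a whole. The 8 subunit genes summed to 419.6 RPKM after miR-106b, 395.4 after miR-93, 452.1 after miR-25 and 433.9 in the control, a log2 change of -0.05, -0.13 and 0.06. Of the 10 genes of the complex and its activators, 9 were inside the cutoff with miR-106b, all 10 with miR-93 and 7 with miR-25. Over all genes 25.7%, 32.0% and 43.5% passed it, so most genes were inside it too. Rescaling took Wasl past the cutoff with miR-93 and Arpc1a with miR-25.

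Arpc1b, the second form of the p41 subunit, had 59.3 RPKM after miR-106b, 65.3 after miR-93, 87.3 after miR-25 and 79.0 in the control, and passed only with miR-106b, at -0.41 (-0.49 to -0.34), which rescaling took inside the cutoff. The ratio of Arpc1b to its alternative Arpc1a was 2.41 in the control library, 2.08 with miR-25, 1.92 with miR-93 and 1.58 with miR-106b. Arpc5, the smallest subunit, had 53.0 RPKM after miR-106b, 43.2 after miR-93, 31.0 after miR-25 and 45.4 in the control, lowest with miR-25 at -0.55 (-0.64 to -0.46). With miR-106b and miR-93 its changes of 0.22 (0.14 to 0.30) and -0.07 (-0.16 to 0.01) were inside the cutoff. Actr2 (Arp2) had 43.4 RPKM after miR-106b, 43.6 after miR-93, 54.8 after miR-25 and 39.6 in the control, highest with miR-25 at 0.47 (0.37 to 0.56). Subunits of the same complex thus passed in opposite directions in the miR-25 library.

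Cttn (cortactin), which stabilizes branch points, had 36.3 RPKM after miR-106b, 35.0 after miR-93, 49.8 after miR-25 and 33.3 in the control, and passed with miR-25 at 0.58 (0.51 to 0.65). The table listed Cttn under 2 gene identifiers, ENSRNOG00000047280 and ENSRNOG00000050994, whose reads differed by at most 1 in each library, so its level is uncertain and it was counted once. Wasl (N-WASP), an activator of the complex, had between 3.30 and 4.03 RPKM and passed with no mimic, or upward with miR-93 after rescaling.

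Profilins supply actin monomers to formins and Ena/VASP proteins. Pfn1, the general form, had between 208.0 and 252.2 RPKM and passed with no mimic, or upward with miR-25 after rescaling. Pfn2, the form best known from neurons, had 4.28 RPKM after miR-106b, 4.52 after miR-93, 10.3 after miR-25 and 5.55 in the control. It stood apart in the miR-25 library with a log2 change of 0.89 (0.62 to 1.16), against -0.37 (-0.69 to -0.06) with miR-106b and -0.29 (-0.61 to 0.02) with miR-93. Even there Pfn2 made up 3.91% of summed profilin RPKM, against 2.60% in the control library.

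Coronins bind filaments and Arp2/3 branches and help to dismantle them. Coro1b, a coronin of the leading edge, had 31.3 RPKM after miR-106b, 35.0 after miR-93, 44.6 after miR-25 and 30.0 in the control, and passed with miR-25 at 0.57 (0.47 to 0.67). Coro6, a coronin known from muscle, had 9.62 RPKM after miR-106b, 9.01 after miR-93, 8.30 after miR-25 and 12.9 in the control. All 3 mimic libraries were below the control, by -0.42 (-0.56 to -0.29), -0.52 (-0.66 to -0.38) and -0.64 (-0.78 to -0.49), of which only the miR-25 change also passed after rescaling. Coro1c had between 17.2 and 19.2 RPKM. Coro2b, below the 1.0 RPKM limit in every library, had 0.382 RPKM after miR-106b, 0.329 after miR-93, 0.615 after miR-25 and 0.713 in the control, from 15 to 28 reads, too few for more than these values.

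At the filament ends, leiomodin and 1 tropomodulin passed the cutoff. Lmod2, the cardiac leiomodin that lengthens thin filaments at the pointed end, had 117.2 RPKM after miR-106b, 52.0 after miR-93, 78.3 after miR-25 and 167.1 in the control. All 3 mimic libraries were below the control and miR-93 was lowest. The log2 change was -0.51 (-0.56 to -0.47) after miR-106b, -1.68 (-1.74 to -1.62) after miR-93 and -1.09 (-1.15 to -1.04) after miR-25. Tmod1, which caps the same pointed ends in the sarcomere, stayed between 44.2 and 49.8 RPKM, and the ratio of Lmod2 to Tmod1 was 3.36 in the control library, lowest with miR-93 at 1.07, then 1.77 with miR-25 and 2.40 with miR-106b.

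Tmod3, the broadly expressed tropomodulin, had 20.1 RPKM after miR-106b, 21.4 after miR-93, 26.3 after miR-25 and 16.3 in the control. It was above the control in each, by 0.30 (0.15 to 0.45), 0.40 (0.25 to 0.55) and 0.69 (0.55 to 0.84), and the first passed only after rescaling. Capzb, a subunit of the capping protein of barbed ends, had between 49.2 and 53.4 RPKM and was among the steadiest members.

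S1pr1, the receptor for sphingosine-1-phosphate that signals to Rac and the actin cortex, had 13.3 RPKM after miR-106b, 5.88 after miR-93, 4.78 after miR-25 and 24.5 in the control. All 3 mimic libraries were below the control, at -0.88 (-1.0 to -0.76), -2.06 (-2.22 to -1.90) and -2.36 (-2.54 to -2.19). These ranked 314th, 78th and 45th from the bottom of the 11543 genes. S1pr1 is also abundant in endothelial cells, and in bulk RNA fewer cells of a type and less RNA of a gene in each cell cannot be told apart. Of the 8 endothelial markers 7 were listed (Pecam1 was not), none at 0, and they summed to 7.01 RPKM after miR-106b, 7.40 after miR-93, 6.29 after miR-25 and 9.54 in the control. Of the 4 that were above 1.0 RPKM in the control library, 3 were down and 1 up with miR-106b, 2 down and 1 up with miR-93, and 3 down and 1 up with miR-25. The median log2 change of those 4 was -0.55, -0.40 and -0.95, and their part in the S1pr1 values was not tested.

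The cell type markers moved most in the miR-25 library. All 8 CM markers were down there, with a median of -0.82 and a range of -4.47 to -0.42, 7 of the 8 fibroblast markers were down and 1 up, with a median of -1.05, and all 5 smooth muscle markers were up, with a median of 1.43. Among the members known from muscle, Lmod2 and Coro6 were down in that library and Cfl2 and Tmod1 were inside the cutoff. With miR-106b 2 of the 8 CM markers were down and 1 up, and with miR-93 3 were down and 1 up, at medians of -0.06 and -0.22. Of the 8 fibroblast markers 5 were down and 0 up with miR-106b, and 4 down and 0 up with miR-93, at medians of -0.55 and -0.29. Of the 5 smooth muscle markers 1 was down and 1 up with miR-106b, and 2 down and 0 up with miR-93, at medians of -0.18 and -0.3. The part of these shifts in the members' values was not tested.

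**Figure D5:**
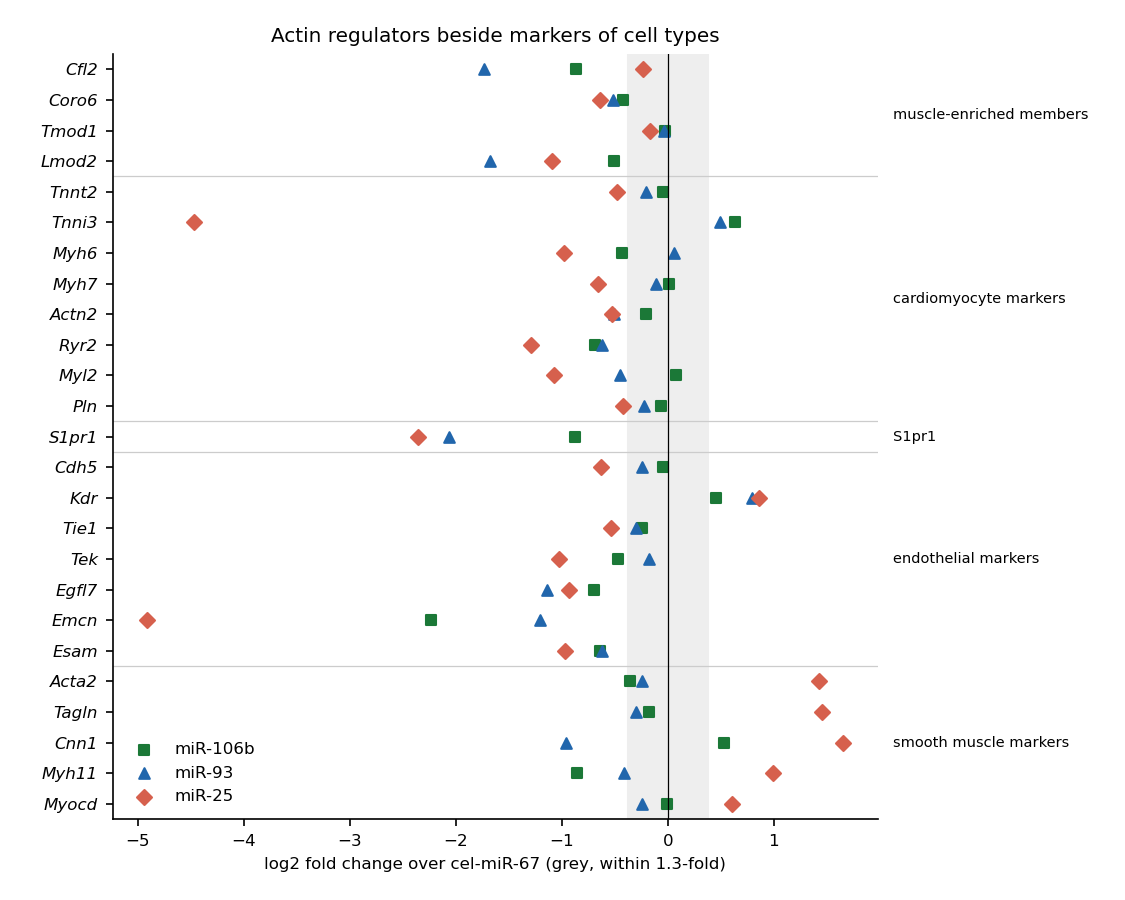
Log2 change of RPKM, mimic over cel-miR-67, of S1pr1 and 4 members known from muscle (Cfl2, Coro6, Tmod1, Lmod2), beside cardiomyocyte, endothelial and smooth muscle markers, in the 3 mimic libraries, with the 1.3-fold range shaded. Each point is 1 gene in 1 library, including markers with few reads. With miR-25 all 8 cardiomyocyte points lie below 0 and all 5 smooth muscle points above it, whereas with miR-106b the medians of those lists are -0.06 and -0.18.

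The mimic libraries were also compared directly, which takes the control value out of each ratio. The genes compared were still those above 1.0 RPKM in the control library. Between miR-93 and miR-106b, the mimics with the same seed, 5 members were lower with miR-93 and 1 higher, 13.2% and 2.63%, against 9.04% and 7.47% of all genes. The lower ones were Enah at -1.39 (-1.50 to -1.29), Diaph3 at -0.39 (-0.55 to -0.23), Cfl2 at -0.86 (-0.91 to -0.80), Lmod2 at -1.17 (-1.23 to -1.11) and S1pr1 at -1.18 (-1.35 to -1.01), and the higher one was Daam2 at 0.57 (0.34 to 0.80). Down with both mimics were 9 members (23.7%, against 9.93% of all genes). Each had its lower value with miR-93 on the deposited scale, as did 7 of the 9 after rescaling. Rescaling raised this difference by 0.06 and left Limk1 at 0.03 and Ssh2 at 0.05. The same order was not counted over all genes down with both, so it cannot be called particular to the members. Over all genes, too, downregulation was more frequent with miR-93 (17.2%) than with miR-106b (14.1%). For 5 of the 9 members (Enah, Cfl2, Dstn, Lmod2 and S1pr1) the interval of the difference on the deposited scale lay below 0. For Limk1, with -0.03 (-0.46 to 0.40), and Ssh2, with -0.01 (-0.14 to 0.11), the interval of the difference held 0. It also held 0 for Ssh3, with -0.29 (-0.66 to 0.08), and Coro6, with -0.09 (-0.24 to 0.05). Rescaling took Diaph3 inside the cutoff, at -0.33. Together 15.8% of members passed in this comparison, against 16.5% of all genes.

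Between miR-25 and miR-106b, 13 members were higher with miR-25 and 5 lower, 34.2% and 13.2%, against 22.2% and 24.4% of all genes. Between miR-25 and miR-93, 14 were higher with miR-25 and 3 lower, 36.8% and 7.89%, against 22.4% and 24.3%. The median difference of the members was 0.10 and 0.22, and that of all genes -0.01 and -0.02. In either direction 47.4% and 44.7% of members passed, against 46.7% of all genes in both comparisons. Ssh3 was higher with miR-25 by 1.94 (1.67 to 2.21) over miR-106b and by 2.22 (1.92 to 2.54) over miR-93, and Enah by 1.24 (1.18 to 1.31) and 2.63 (2.54 to 2.73). Cfl2 was higher by 0.64 (0.60 to 0.68) and 1.5 (1.44 to 1.55). S1pr1 was lower with miR-25 than with miR-106b by -1.48 (-1.66 to -1.30), and -0.30 (-0.51 to -0.09) against miR-93 was inside the cutoff. Limk1 at 1.45 (1.11 to 1.80) and 1.48 (1.13 to 1.85) and Pfn2 at 1.26 (1.00 to 1.53) and 1.18 (0.92 to 1.46) were also higher with miR-25 in both comparisons. Evl, at -0.54 (-0.85 to -0.23) and -0.63 (-0.95 to -0.32), and Arpc5, at -0.77 (-0.86 to -0.69) and -0.48 (-0.57 to -0.39), were lower in both.

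A list of 69 further genes of actin assembly and turnover was examined in the same way, of which 64 were listed and 50 passed the 1.0 RPKM limit in the control. It holds the WAVE complex, cyclase-associated proteins, twinfilins, gelsolins and thymosins. With miR-106b 5 were up and 8 down (10% and 16%, against 11.6% and 14.1% of all genes). With miR-93 4 were up and 10 down (8% and 20%, against 14.8% and 17.2%). With miR-25 11 were up and 6 down (22% and 12%, against 18.8% and 24.7%). The medians were -0.05, -0.09 and 0.04. The shares of this list lay nearer to those of all genes than the members' did for both directions with miR-106b and for downregulation with miR-93. They lay farther from them than the members' did for upregulation with miR-93 and for both directions with miR-25.

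In that list 2 genes passed 2-fold with some mimic, of which 1 is described. Coro1a, the coronin of leukocytes, had 0.673 RPKM after miR-106b, 0.595 after miR-93, 1.58 after miR-25 and 1.54 in the control, from 32, 26, 69 and 56 reads. The change was -1.20 (-1.87 to -0.55), -1.38 (-2.11 to -0.68) and 0.04 (-0.49 to 0.57). The 6 leukocyte markers, none at 0, summed to 10.7 RPKM after miR-106b, 12.8 after miR-93, 11.6 after miR-25 and 15.2 in the control, and their part in the Coro1a values was not tested.

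Promoters were searched for 2 motifs that are known from genes of the actin cytoskeleton and of muscle, in the RefSeq (GRCr8) window of 250 bases before to 50 bases after each gene start, on both strands. Of the 40 members 39 had a window, and Arpc1a had none. The CArG box, the binding motif of serum response factor, was found in 0 of the 39 members and in 1.77% of 27457 genes. The letters GGAATG, the core of the TEAD motif, were found in 6 members (Arpc2, Coro1b, Coro6, Diaph3, Evl and Pfn1), 15.4% against 15% of all genes. At a share of 1.77%, 39 genes are too few for 0 to show a lack of CArG boxes. A match, or its absence, is a description of these letters in this window and says nothing of binding.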

How the data were processed

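RNA of 4 cultures of neonatal rat ventricular cardiomyocytes was sequenced by the authors, 1 library per mimic. The authors checked reads with FASTQC, trimmed them with Cutadapt, aligned them with STAR 2.7 to the Ensembl reference Rnor_6.0 and computed RPKM from rounded gene counts with the rpkm function of edgeR, and these RPKM values per gene and library are what they deposited. The counting program is not given in the sources used here. The library sizes behind the deposited RPKM were not whole numbers.

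Here each fold change was the ratio of deposited RPKM without a pseudocount, for genes above 1.0 RPKM in the cel-miR-67 library, and calls used the study's 1.3-fold cutoff. The study's text names an RPKM cutoff of 1.0 in one place and above 2.0 in both compared libraries in another, and the latter was an alternative here. For each gene, the RPKM of the libraries were solved for whole reads (tolerance 0.01 reads), which succeeded for 15731 of 15731 genes. Reads gave 95% exact Clopper-Pearson intervals. With 1 library per mimic, the intervals cover counting error only. PCR reads carry no molecular identifiers, so copies of a molecule were not told apart and the intervals may be too narrow. Scripts ran in Python 3.11.15 with numpy 2.4.6, pandas 2.3.3, scipy 1.17.1 and matplotlib 3.10.9, and the interval and call steps were tested on simulated data. A total of 176 symbols were listed more than once, and the first row was used.

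Every member above 1.0 RPKM in the control library and past 1.3-fold with at least 1 mimic was given its value in the 4 libraries, other members were given by level and range, and genes of the wider list were named where past 2-fold. The results of 2 members and of 1 gene of the wider list are not reported here, though these genes remain in the counts. Members and lists were chosen with earlier results of these data known, and the study itself drew a network of actin cytoskeleton genes from these libraries, so neither list is independent evidence of direction. The alternatives were other RPKM filters, a pseudocount of 1 RPKM, centring on the median gene, rescaling to reads on listed genes, a 1.5-fold cutoff, and a call that also needed the interval to leave out 0. Rescaling of the direct comparisons between mimics was added after seeing the data. RefSeq (GRCr8) gave microRNA and promoter sequences only, since the values were made on Rnor_6.0.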

Additional observations from a re-analysis of the deposited data

How the results depend on the processing

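Rescaling to reads on listed genes changed the counts with miR-106b from 11 down and 1 up to 7 down and 3 up. It moved the median log2 change of the members from -0.15 to 0.00 with miR-93 and from 0.09 to 0.24 with miR-25. The same shift of 0.15 was added to every gene with these mimics. The distance of the members' median from that of all genes therefore stayed as it was. The share of listed genes in the library size behind RPKM was 66.9% in the control library and between 60.4% and 63.2% in the mimic libraries, and which scale is right was not tested. A 1.5-fold cutoff left 5 down and 0 up with miR-106b, 7 down and 2 up with miR-93, and 3 down and 3 up with miR-25. A pseudocount of 1 RPKM left 2 up with miR-93, where Fmnl2 and Tmod3 no longer passed, and it also took Diaph1 and Diaph3 with miR-93 and Diaph3 with miR-25 inside the cutoff. The other RPKM filters, centring on the median gene and the call by interval left every count within 1.5 times its value, although RPKM above 1.0 in both libraries left out Limk1 with miR-106b and miR-93, and RPKM above 2.0 in both also left out Ssh3 with both and Diaph1 and Fmnl2 with miR-93. No member past the cutoff changed direction under any of these settings. No paired analysis was possible because each group holds 1 library, so leaving out a replicate was not possible either. Below about 3 RPKM the intervals of Limk1, Evl, Fmnl2, Diaph1 and Ssh3 were wide, and depth limits what can be said of Coro2b.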

Other observations

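Genes of the wider actin list below 1.0 RPKM in the control library entered no count. Several of them passed 2-fold, and the share of all genes below 1.0 RPKM that did so was not counted. Wasf1 passed with each mimic, at 1.08 (0.41 to 1.78), 1.18 (0.51 to 1.89) and 1.79 (1.16 to 2.47). Its reads were 72, 71 and 108, against 26 in the control. Lmod3 passed with miR-25 at -2.41 (-3.84 to -1.2), from 7 reads against 31 in the control. A pair of these genes, Vil1 and Cyfip2, is described here because of its values, and was chosen after these were seen. Vil1 (villin), which bundles the actin of microvilli, had 4.41 RPKM after miR-106b, 4.69 after miR-93, 0.289 after miR-25 and 0.347 in the control, from 433, 423, 26 and 26 reads. It was high in both libraries of the shared seed and level with the control with miR-25, with a log2 change of 3.67 (3.09 to 4.30), 3.76 (3.18 to 4.39) and -0.27 (-1.11 to 0.58). Cyfip2, a subunit of the WAVE complex that activates Arp2/3, had 0.635 RPKM after miR-106b, 0.240 after miR-93, 2.44 after miR-25 and 0.464 in the control, from 176, 61, 621 and 98 reads. Here the mimics of the shared seed lay on opposite sides of the control, at 0.45 (0.09 to 0.82) and -0.95 (-1.44 to -0.48), and miR-25 was highest at 2.40 (2.09 to 2.72). Each value rests on 1 library, and the intervals cover counting error only.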
